A study of Homo sapiens with 16 samples.

Results

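A set of 10 genes of the BCL2 family, the proteins that decide whether the outer mitochondrial membrane is opened during apoptosis, were followed in HCT116 cells under tumour necrosis factor (TNF) and after knockdown of EZH1 or UXT. They were BBC3, PMAIP1, BIK, BAD, BID and BCL2L11, BAX and BAK1, and BCL2L1 and MCL1. The 10 are members of the family given by symbol, with no threshold on their values, from the 28502 gene symbols listed, and each had values shared with no other symbol. All 10 had a mean of at least 1 FPKM over the libraries, the limit for testing, which 11845 loci passed. FPKM is the number of fragments scaled by transcript length and library size, so levels may be compared between genes.

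The family works as a balance of 3 kinds of protein. BAX and BAK1 are the effectors, which form pores in the outer mitochondrial membrane and release cytochrome c. BCL2L1 (BCL-XL) and MCL1 are anti-apoptotic and hold the effectors and their activators in check. The BH3-only proteins are stress sensors that bind the anti-apoptotic members or activate the effectors directly. Several of their genes are transcribed on demand, among them BBC3 (PUMA) and PMAIP1 (NOXA). In epithelial cells TNF can signal both for survival, through NF-kB, and for death, through caspase 8, which cleaves BID.

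HCT116 is an established human colorectal carcinoma line. The 6 RNA-seq libraries were siEZH1 TNF and siEZH1 PBS, from cells given small interfering RNA (siRNA) against EZH1, siUXT TNF and siUXT PBS, from cells given siRNA against UXT, and the controls NC TNF and NC PBS. TNF and PBS name the treatment in the titles, PBS being the phosphate-buffered saline vehicle. EZH1 encodes a histone H3 lysine 27 methyltransferase and UXT a prefoldin-like protein. The TNF dose and time, the siRNA sequences, the days after transfection and what NC stands for are not stated. Each condition was a single library of this line, without replicates. The series' 10 chromatin samples were not analysed here.

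UXT was at 24.6 and 27.7 FPKM in siUXT TNF and siUXT PBS, against 59.6 and 62.2 FPKM in NC TNF and NC PBS. EZH1 was at 4.14 and 4.05 FPKM in siEZH1 TNF and siEZH1 PBS, against 5.12 and 5.45 FPKM in NC TNF and NC PBS. Of 8 epithelial markers, 7 were at 1 FPKM or more in every library; the exception was VIL1, listed at 0 in all libraries except siEZH1 TNF. The leukocyte markers PTPRC and CD3E were listed at 0 in all 6 libraries, and the 5 leukocyte markers together summed to 1.05 to 2.58 FPKM. The siUXT PBS library stood apart: it held the highest value of 33.7% of all tested loci and the lowest of 30.6%. The calls on the 10 genes are therefore also given without it. The siEZH1 PBS library was next, with the highest value of 25.2% of loci and the lowest of 27%, and it held the lowest value of 7 of the 10 genes.

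In HCT116 cells the 2 most abundant members were an anti-apoptotic and an effector gene. BCL2L1 averaged 83.2 FPKM over the 6 libraries (61.6 to 104) and BAX 80.9 FPKM (66.6 to 103), and these ranges overlapped. MCL1 followed at a mean of 51.9 FPKM (29.2 to 61.5). Its range lay wholly below that of BAX. BIK, BAD, BID, BAK1 and PMAIP1 came next at means of 36.6, 31.0, 28.7, 25.6 and 24.5 FPKM. BBC3 averaged 14.7 FPKM and BCL2L11 (BIM) 8.42 FPKM, the lowest of the 10. From MCL1 downward, each gene's range overlapped that of its neighbour in this order, so the order among them is not firm. The genes also differed in their spread over the libraries: the highest value was 4.18 times the lowest for PMAIP1, 3.35 times for BBC3 and 3.01 times for BIK, but 1.46 times for BID and 1.55 times for BAX. In bulk RNA, fewer cells expressing a gene and less RNA per cell cannot be told apart. FPKM per symbol also does not separate splice forms, such as the long and short forms of BCL2L1 and MCL1, whose proteins act in opposite ways.

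**Figure D1:**
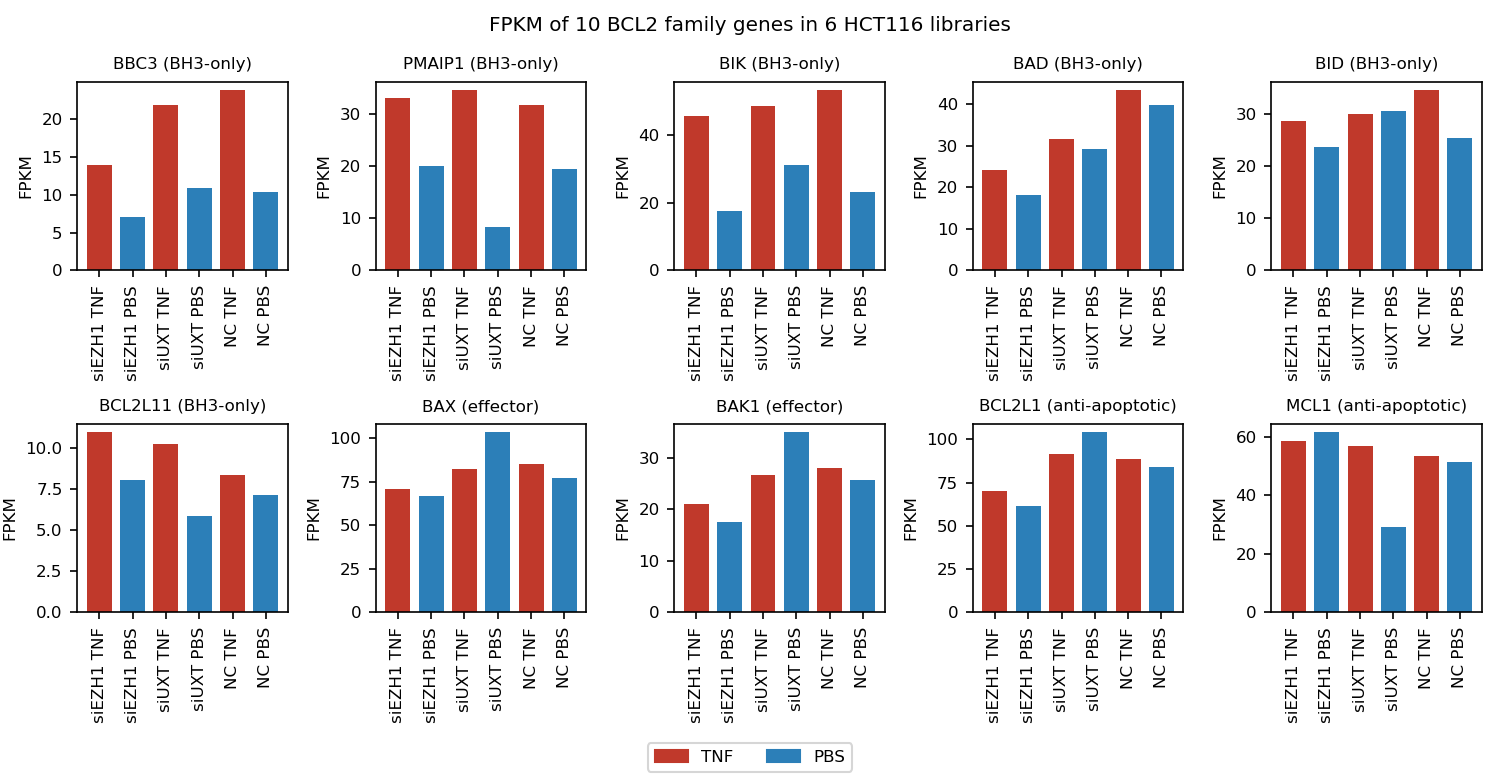
FPKM of each gene in the 6 libraries, 1 bar per library, red under TNF and blue under PBS, with the role of the gene in the panel title. BBC3, PMAIP1 and BIK have all 3 red bars taller than the blue bar beside them by at least 1.5-fold, and siUXT PBS holds the lowest bar of PMAIP1, BCL2L11 and MCL1 and the highest of BAX, BAK1 and BCL2L1. Over all loci, siUXT PBS held the lowest value of 30.6% and the highest of 33.7%.

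Averaged over the transfections, the largest TNF differences among the 10 genes were those of 3 BH3-only genes. BBC3, whose protein PUMA binds all anti-apoptotic members, was at 14.0 FPKM under TNF against 7.10 FPKM under PBS in siEZH1 cells, at 21.9 against 10.9 FPKM in siUXT cells and at 23.8 against 10.3 FPKM in NC cells. BIK, a BH3-only protein of the endoplasmic reticulum, was at 45.7 FPKM under TNF against 17.7 FPKM under PBS in siEZH1 cells, at 48.6 against 31.1 FPKM in siUXT cells and at 53.3 against 23.2 FPKM in NC cells. For both genes every TNF library lay above every PBS library. PMAIP1, whose protein NOXA binds MCL1 and promotes its breakdown, was at 33.1 FPKM under TNF against 20.0 FPKM under PBS in siEZH1 cells, at 34.5 against 8.25 FPKM in siUXT cells and at 31.8 against 19.5 FPKM in NC cells. Its 3 TNF values lay close together, and the siUXT PBS value lay far below the other PBS values.

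On the log2(FPKM + 1) scale, which understates the change of low genes, the mean difference under TNF was 0.99 ± 0.13 for BBC3, 1.04 ± 0.36 for BIK and 1.11 ± 0.72 for PMAIP1 (SD, n = 3 transfections). Each was higher under TNF in 3 of 3 pairs. In limma's additive model of transfection and treatment over the 6 libraries, none of the 10 genes passed a Benjamini-Hochberg adjusted p of 0.05 over all 11845 loci, where 0.414% of loci did (0.405% higher and 0.00844% lower). The limma adjusted p (Benjamini-Hochberg) was 0.090 for BBC3, 0.13 for BIK and 0.42 for PMAIP1. At an unadjusted p under 0.05 there were 4 of the 10, these 3 and BCL2L11, against 3.96% of all loci. All 3 were at least 1.5-fold higher in every pair, as were 0.979% of all loci. By any amount, 5 of the 10 were higher in every pair and none lower, against 9.08% and 11.1% of all loci. Taken singly, the siEZH1 and NC pairs each had these 3 genes at least 1.5-fold higher, against 3.22% and 3.4% of loci, and the siUXT pair also had BCL2L11 and MCL1, against 16.8%. Without the siUXT PBS library, limma with Benjamini-Hochberg adjustment called 3 of the 10 higher and none lower, against 2.47% of loci higher and 0.295% lower (2.77% in either direction). BIK then rose by 1.24 ± 0.08 (standard error; adjusted p = 8.2e-04), BBC3 by 1.01 ± 0.10 (adjusted p = 0.0055) and PMAIP1 by 0.69 ± 0.07 (adjusted p = 0.0082). That fit takes the TNF difference from the siEZH1 and NC pairs alone and has 1 residual degree of freedom. The fits without siUXT TNF and without the siUXT pair rest on the same pairs, so they are not separate support. The same 3 were called without siUXT TNF, against 2.48% of loci higher and 0.287% lower, and without the whole siUXT pair, against 2.43% and 0.295% (2.73% in either direction). Without the NC pair or without the siEZH1 pair PMAIP1 was the 1 gene called, at 1.32 and 1.31, against 0.886% of loci higher and 0.22% lower (1.11% in either direction) and 0.87% and 0.228% (1.1%). In both fits limma set the spread from all loci alone, so that of PMAIP1 itself did not count. Both include the siUXT pair, where the PMAIP1 difference was 1.94. Over all alternatives tried, the limma adjusted p (Benjamini-Hochberg) lay between 8.2e-04 and 0.36 for BIK, 0.0055 and 0.35 for BBC3, and 0.0064 and 0.78 for PMAIP1.

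**Figure D2:**
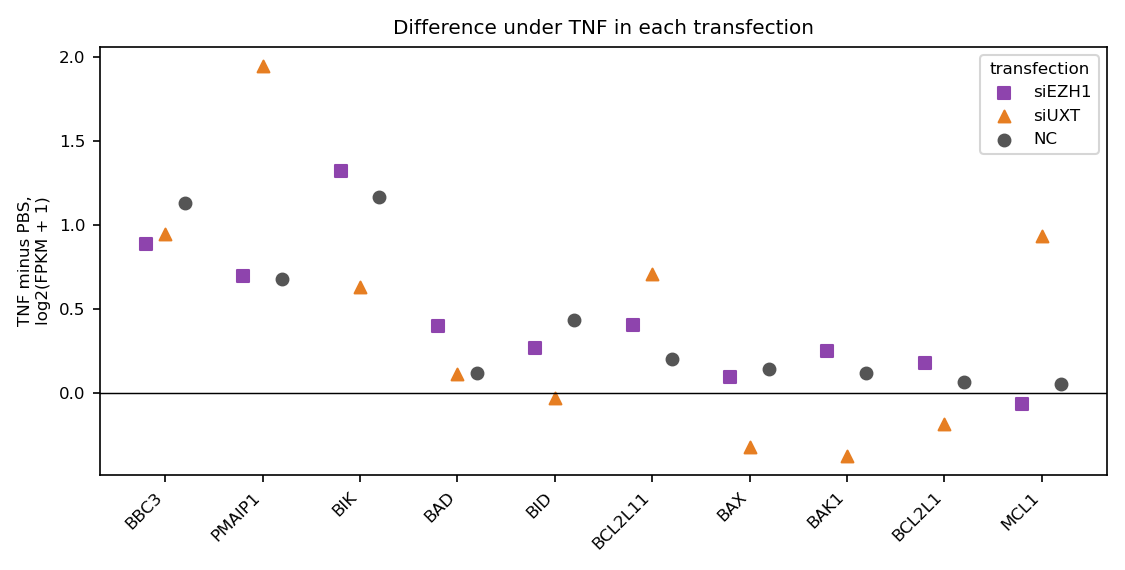
Difference under TNF, as TNF minus PBS on the log2(FPKM + 1) scale, for each gene in siEZH1 (squares), siUXT (triangles) and NC cells (circles), 1 pair of libraries per point. BBC3, PMAIP1 and BIK lie above 0.58 in all 3 transfections, and the siUXT triangle of PMAIP1 reaches 1.94.

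The other 3 BH3-only genes differed less. BCL2L11, whose protein BIM activates the effectors, was at 10.9 FPKM under TNF against 8.04 FPKM under PBS in siEZH1 cells, at 10.2 against 5.86 FPKM in siUXT cells and at 8.33 against 7.12 FPKM in NC cells. It was higher under TNF in 3 of 3 pairs, at 0.44 ± 0.26 on the log2(FPKM + 1) scale (SD, n = 3 transfections), and the values of the treatments did not overlap. BAD, which binds BCL-XL unless phosphorylation keeps it on 14-3-3 proteins, was also higher in 3 of 3 pairs, at 0.21 ± 0.16 on the same scale. Its TNF and PBS values overlapped, from 24.1 to 43.3 FPKM under TNF and from 18.1 to 39.7 FPKM under PBS. BID, the caspase 8 substrate, was at 28.5, 29.8 and 34.4 FPKM under TNF in siEZH1, siUXT and NC cells, against 23.6, 30.5 and 25.2 FPKM under PBS. It was higher in siEZH1 and NC cells only. Without siUXT PBS the TNF difference was 0.30 for BCL2L11, 0.26 for BAD and 0.35 for BID, and limma called none of these 3 (Benjamini-Hochberg adjusted p of 0.18, 0.17 and 0.080).

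The 2 effector and 2 anti-apoptotic genes differed by little in NC and siEZH1 cells and by more in siUXT cells. In NC cells BAX was at 1.10 times its PBS level under TNF, BAK1 at 1.09 times, BCL2L1 at 1.05 times and MCL1 at 1.04 times. In siEZH1 cells these ratios were 1.07, 1.20, 1.14 and 0.955. In siUXT cells BAX, BAK1 and BCL2L1 were lower under TNF, at 0.800, 0.766 and 0.879 times the PBS level, and MCL1 was higher at 1.94 times. For these 4 genes the limma 95% interval of the TNF difference was -0.39 to 0.33 for BAX, -0.42 to 0.42 for BAK1, -0.31 to 0.36 for BCL2L1 and -0.22 to 0.84 for MCL1, all on the log2(FPKM + 1) scale.

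The upstream windows of BBC3 and PMAIP1 are shown because both genes were at least 1.5-fold higher under TNF in every pair, as was BIK, and that of BAD because it had the largest difference after siEZH1. They are the 250 bases before the annotated start, from RefSeq on GRCh38.p14, 5′ to 3′ on the strand of the gene. BBC3 is from chr19:47232668-47232917 on the minus strand, PMAIP1 from chr18:59899746-59899995 on the plus strand and BAD, first of 2 starts, from chr11:64284705-64284954 on the minus strand. Capitals mark a match to the AP-1 motif.
BBC3: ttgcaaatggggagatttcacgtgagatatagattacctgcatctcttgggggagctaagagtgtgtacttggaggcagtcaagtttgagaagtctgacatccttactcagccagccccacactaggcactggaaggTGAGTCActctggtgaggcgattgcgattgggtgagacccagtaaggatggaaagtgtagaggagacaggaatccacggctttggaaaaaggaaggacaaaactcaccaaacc
PMAIP1: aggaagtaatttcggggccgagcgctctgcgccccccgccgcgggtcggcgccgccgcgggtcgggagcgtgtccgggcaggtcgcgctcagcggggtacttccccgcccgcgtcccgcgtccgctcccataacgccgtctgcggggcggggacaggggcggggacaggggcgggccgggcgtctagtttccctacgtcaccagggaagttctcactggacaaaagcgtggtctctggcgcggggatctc
BAD: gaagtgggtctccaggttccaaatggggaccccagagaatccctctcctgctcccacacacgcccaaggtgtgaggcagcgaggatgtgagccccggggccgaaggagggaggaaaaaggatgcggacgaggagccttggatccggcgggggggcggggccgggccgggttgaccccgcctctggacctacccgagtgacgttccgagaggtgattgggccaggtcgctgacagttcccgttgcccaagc
The 3 windows differ in base composition: BBC3 has 49.2% G and C and a CpG ratio (observed over expected) of 0.28, PMAIP1 72.8% and 1.09, and BAD 66.4% and 0.63. The medians of 34788 windows of the same length were 58.0% and 0.56.

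Motifs were searched on both strands in the 14 windows that 8 of the members had in RefSeq. The AP-1 motif, TGANTCA, was found in the BBC3 window, 113 to 107 bases before the start, and in no other window of the members; 6.59% of all windows hold it. The NF-kB (kappaB) motif, which 9.95% of all windows hold, was found in none of the 14. The CRE motif, TGACGTCA, in 1.64% of all windows, was not found in them either. The TATA motif, TATAAA, occurred in the window of 1 BCL2L1 start at a pair of positions, and 10.8% of all windows hold it. No found motif overlapped another. These matches describe letters in short windows and say nothing on binding, nor on sites elsewhere.

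After siEZH1, 7 of the 10 genes were lower than in NC under both treatments and 3 were higher under both. BAD differed most: it was at 24.1 and 18.1 FPKM in siEZH1 TNF and siEZH1 PBS, against 43.3 and 39.7 FPKM in NC TNF and NC PBS. That is 0.557 times the NC level under TNF and 0.455 times under PBS, and the groups did not overlap. Under PBS only 0.405% of tested loci had a more negative difference, and under TNF 1.65%. BBC3 was at 0.588 times the NC level under TNF and 0.687 times under PBS. Its level under TNF in siEZH1 cells, 14.0 FPKM, lay between the NC TNF and NC PBS levels of 23.8 and 10.3 FPKM. Its TNF difference was 0.89 in siEZH1 cells and 1.13 in NC cells on the log2(FPKM + 1) scale, and whether these differ was not tested.

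The lower genes came from all 3 roles. The effector BAK1 was at 21.1 and 17.6 FPKM in siEZH1 TNF and siEZH1 PBS, against 28.0 and 25.7 FPKM in NC TNF and NC PBS. The other effector, BAX, was at 71.1 and 66.6 FPKM in siEZH1 TNF and siEZH1 PBS, against 85.0 and 76.9 FPKM in NC TNF and NC PBS. The anti-apoptotic BCL2L1 was at 70.0 and 61.6 FPKM in siEZH1 TNF and siEZH1 PBS, against 88.3 and 84.2 FPKM in NC TNF and NC PBS. For these 3 genes both siEZH1 values lay below both NC values. BIK and BID were at 0.858 and 0.829 times the NC level under TNF and at 0.762 and 0.934 times under PBS. MCL1 went the other way, at 58.8 and 61.5 FPKM in siEZH1 TNF and siEZH1 PBS, against 53.4 and 51.4 FPKM in NC TNF and NC PBS. BCL2L11 was at 1.31 times the NC level under TNF and 1.13 times under PBS, and PMAIP1 at 1.04 and 1.03 times.

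With all 6 libraries limma called none of the 10 for siEZH1 (Benjamini-Hochberg), as it called only 0.0169% of all loci. BAD had a difference of -0.96 ± 0.18 on the log2(FPKM + 1) scale (standard error) and BBC3 of -0.61 ± 0.19, both lower in 2 of 2 pairs, each with a limma adjusted p of 0.60. These 2 were the members at an unadjusted p under 0.05, as were 8.21% of all loci. Without siUXT PBS, limma with Benjamini-Hochberg adjustment called 6 of the 10 lower and none higher, against 14.7% of all loci lower and 11.8% higher (26.4% in either direction). BAD fell by 0.96 (adjusted p = 0.0065), BBC3 by 0.61 (adjusted p = 0.012), BAK1 by 0.46 (adjusted p = 0.015), BCL2L1 by 0.39 (adjusted p = 0.013), BIK by 0.30 (adjusted p = 0.038) and BAX by 0.23 (adjusted p = 0.042). Over all alternatives the limma adjusted p (Benjamini-Hochberg) lay between 0.0060 and 0.68 for BAD and between 0.042 and 0.72 for BAX, with the other 4 in between. The estimates are those of the 6-library fit, and in the smaller fit the spread comes only from the siEZH1 and NC libraries. The fits without siUXT TNF and without the siUXT pair rest on the same libraries, so they are not separate support. The same 6 were called without siUXT TNF, against 14.8% of loci lower and 11.3% higher (26.1% in either direction), and without the siUXT pair, against 14.5% and 11.6% (26.2%).

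By count, 7 of 10 genes were lower in both pairs, against 37.7% of all loci, and 3 were higher in both, against 40.7%. BAD alone was at least 1.5-fold lower in both, against 2.38%. The 7 were thus also lower in the TNF pair, which does not use siEZH1 PBS. That pair does use NC TNF, which held the highest value of 4 of the 10 genes, against 14.7% of all loci. These 4, BBC3, BAD, BIK and BID, are all among the 7. The median siEZH1 difference of the 10 genes was -0.26 under TNF and -0.29 under PBS, beside medians of 0.02 and 0.00 over all loci. The epithelial markers moved in the same comparison: of 7 tested, 4 were lower in both pairs and 2 higher, with a median of -0.30, and their part in these values was not tested. EZH1 itself was at 0.809 times its NC level under TNF and 0.742 times under PBS. Over all 6 libraries its siEZH1 difference was -0.30 ± 0.19 on the log2(FPKM + 1) scale (standard error). Limma did not call it (Benjamini-Hochberg adjusted p = 0.64), as it called only 0.0169% of all loci.

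**Figure D3:**
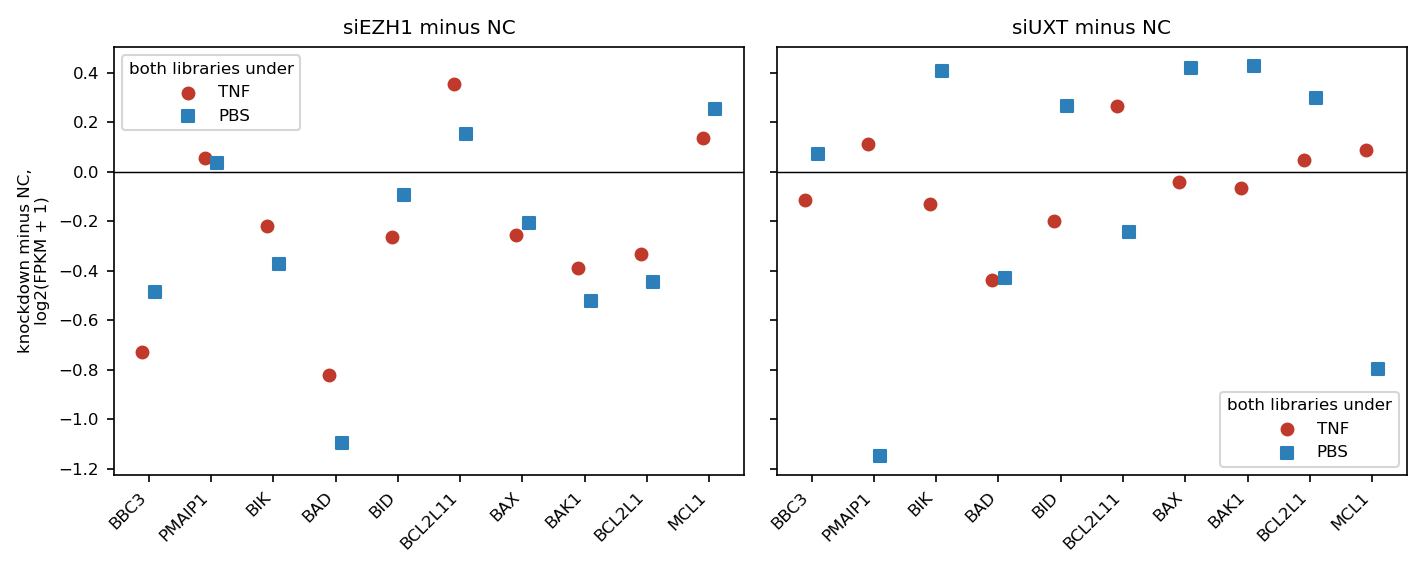
Difference from NC on the log2(FPKM + 1) scale for siEZH1 (left) and siUXT (right), with circles for libraries under TNF and squares for libraries under PBS. After siEZH1 the circle and square of each gene lie on the same side of 0, with BAD lowest at -0.82 and -1.10. After siUXT they lie on opposite sides for 8 of the 10 genes, and PMAIP1 and MCL1 under PBS are at -1.15 and -0.79. Of all loci, 40.7% were higher and 37.7% lower in both siEZH1 pairs, and 22.8% and 17.1% in both siUXT pairs.

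After siUXT the values under TNF and under PBS went apart. MCL1, which encodes a short-lived survival protein, was at 56.8 and 29.2 FPKM in siUXT TNF and siUXT PBS, against 53.4 and 51.4 FPKM in NC TNF and NC PBS. PMAIP1 was at 34.5 and 8.25 FPKM in siUXT TNF and siUXT PBS, against 31.8 and 19.5 FPKM in NC TNF and NC PBS. For both, siUXT PBS was the lowest of all 6 libraries and siUXT TNF lay near NC TNF. BAX, BAK1 and BCL2L1 had their highest value of all libraries in siUXT PBS, at 103, 34.8 and 104 FPKM, against 76.9, 25.7 and 84.2 FPKM in NC PBS. In siUXT TNF these 3 were at 82.6, 26.7 and 91.3 FPKM, against 85.0, 28.0 and 88.3 FPKM in NC TNF. BAD was the member that was lower under both treatments, at 0.733 times the NC level under TNF and 0.737 times under PBS. BCL2L1 was the one that was higher under both, at 1.03 and 1.23 times. Of all loci, 17.1% were lower and 22.8% higher in both pairs.

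Limma with Benjamini-Hochberg adjustment called none of the 10 for siUXT with all 6 libraries, where 0.0422% of loci were called (0.0253% higher and 0.0169% lower), and 0 of the 10 had an unadjusted p under 0.05, against 3.65% of loci. It called 0 of the 10 without siUXT PBS as well, against 1.09% of loci (0.439% higher and 0.65% lower); BAD was nearest, at -0.51 with an adjusted p of 0.083. Without siUXT TNF it called 4 higher (BAX, BAK1, BIK and BCL2L1) and 2 lower (PMAIP1 and MCL1), against 12.0% of loci higher and 18.4% lower (30.4% in either direction). That fit takes the spread of the remaining siUXT library from the siEZH1 and NC pairs. In it PMAIP1 had a difference of -1.14 ± 0.10 (standard error; adjusted p = 0.0013) and MCL1 of -0.82 ± 0.09 (adjusted p = 0.0023). Over all alternatives the limma adjusted p (Benjamini-Hochberg) lay between 0.0013 and 1.0 for PMAIP1 and between 0.0023 and 1.0 for MCL1. PMAIP1 and MCL1 were at least 1.5-fold below NC in the PBS pair, a share of 2 in 10 against 16.4% of all loci; in the TNF pair none was, against 3.06%. The siEZH1 and siUXT comparisons share their NC libraries, so their values are not independent of each other. For BAD the differences side by side were -0.82 and -1.10 after siEZH1 under TNF and PBS, and -0.44 and -0.43 after siUXT.

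**Figure D4:**
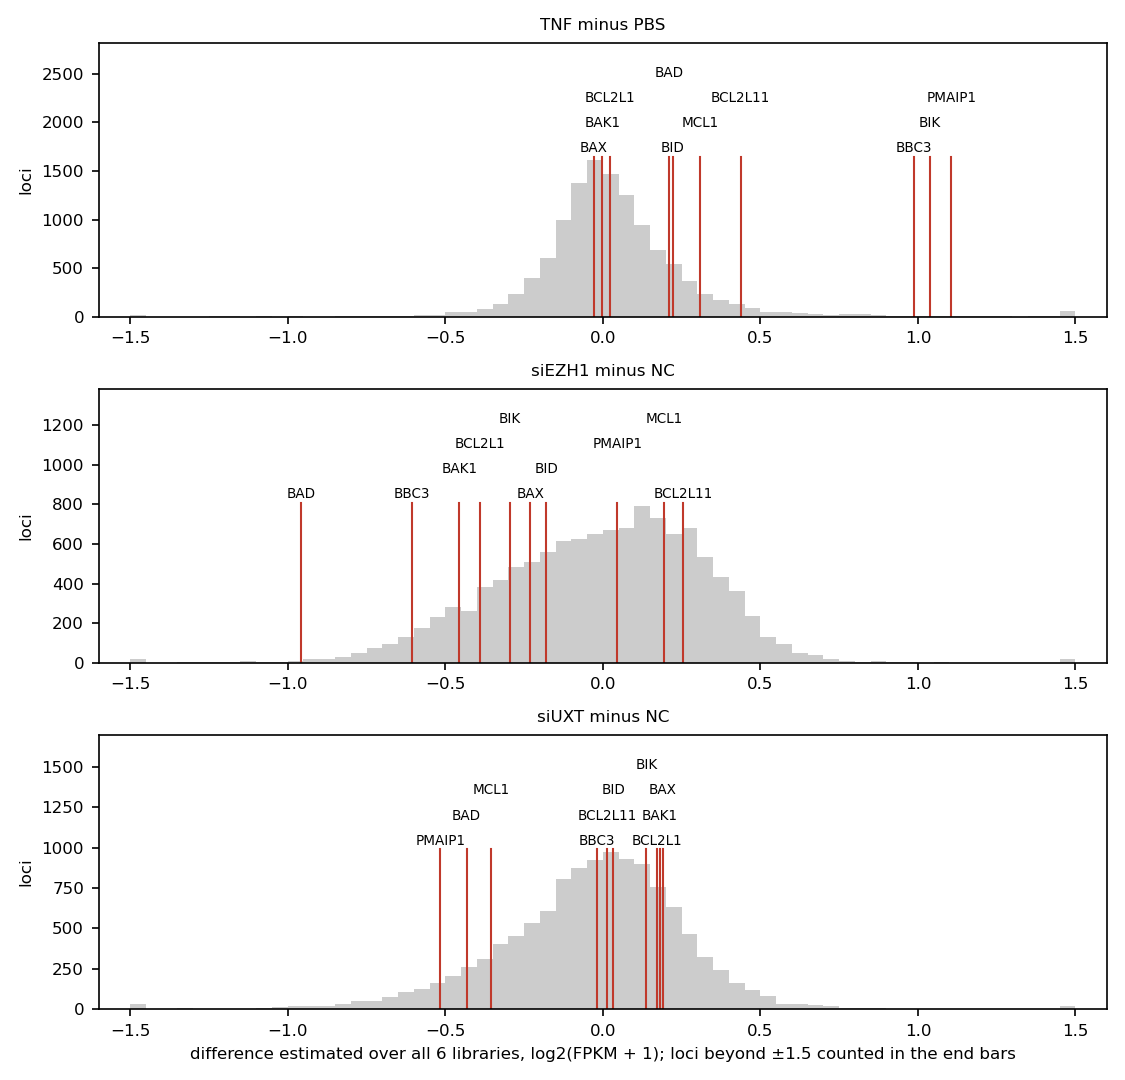
Differences estimated by limma over all 6 libraries for all 11845 tested loci (grey bars, number of loci per bin of the log2(FPKM + 1) difference), with the 10 genes as red lines. BBC3, BIK and PMAIP1 lie in the right tail under TNF and BAD in the left tail after siEZH1, while all 10 genes lie between -0.52 and 0.19 after siUXT.

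Summed by role, the 6 BH3-only genes took a larger part of the family's FPKM under TNF. Their sum was 156 FPKM under TNF against 94.4 FPKM under PBS in siEZH1 cells, 177 against 116 FPKM in siUXT cells and 195 against 125 FPKM in NC cells. The anti-apoptotic pair summed to 129 against 123 FPKM, 148 against 133 FPKM and 142 against 136 FPKM in the same order. BH3-only genes therefore made up 41.4%, 40.7% and 43.4% of the family sum under TNF in siEZH1, siUXT and NC cells, and 31.3%, 29.9% and 34.4% under PBS. The 3 TNF libraries did not overlap with the 3 PBS libraries in this share. The sum includes BBC3, BIK and PMAIP1, already described as higher under TNF, so this is not a separate result. Within the BH3-only sum, BAD made up 15.4% in siEZH1 TNF and 19.1% in siEZH1 PBS, against 22.2% in NC TNF and 31.8% in NC PBS. BIK was the largest BH3-only term in all 3 TNF libraries, at 29.3%, 27.5% and 27.3% in siEZH1, siUXT and NC cells. These sums of RNA say nothing on protein levels, and no test was made on them. They leave out other family genes, such as the anti-apoptotic BCL2L2, whose locus, shared with PABPN1, was at 103 to 127 FPKM.

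**Figure D5:**
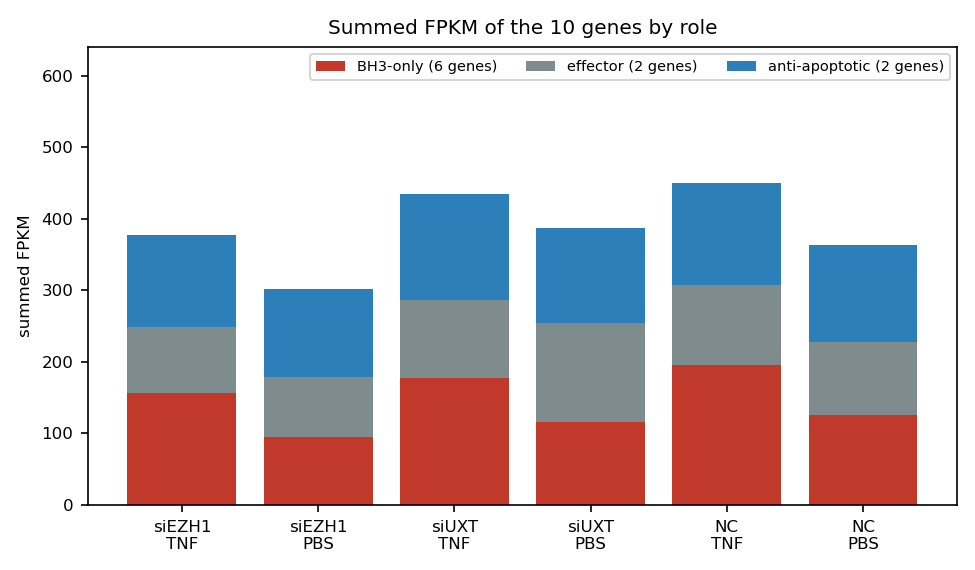
Summed FPKM of the 10 genes in each library, stacked as BH3-only (red, bottom), effector (grey) and anti-apoptotic genes (blue, top). The red part is 156, 177 and 195 FPKM in the TNF libraries of siEZH1, siUXT and NC, against 94.4, 116 and 125 FPKM in their PBS libraries.

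Other genes of the pathway were read from 4 further lists. Of 14 other BCL2 family genes, BCL2A1 and BCL2L10 were listed at 0 in all 6 libraries and 9 were tested. BCL2, the anti-apoptotic founder of the family, was between 0.258 and 0.830 FPKM and was not tested. None of the 9 was called by limma (Benjamini-Hochberg) in any of the 3 comparisons with all 6 libraries. Without siUXT PBS, 2 rose after siEZH1, BNIP3L by 0.47 and BCLAF1 by 0.30 on the log2(FPKM + 1) scale, and 2 fell, BCL2L12 by 0.68 and BOK by 0.55. In that fit 11.8% of all loci were called higher and 14.7% lower. BOK is a BAX-like family member, and BNIP3L a mitophagy receptor. The values of BOK, like those of BCL2L2, BCL2L14 and BNIP3, were shared with another symbol and cannot be assigned to 1 gene. None of the 9 was called under TNF without siUXT PBS. By any amount, 0 of the 9 were higher under TNF in every pair and 1 was lower, unlike the 5 and 0 of the 10 members.

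Downstream of the mitochondrion, 14 genes of the apoptosome, caspases and mitochondrial effectors were all tested, and none was called with all 6 libraries. Without siUXT PBS, limma (Benjamini-Hochberg) called none of them under TNF, and after siEZH1 it called 6 higher and 1 lower, where it called 11.8% of all loci higher and 14.7% lower. CYCS (cytochrome c) and CASP6, an executioner caspase, rose by 0.54 and 0.60, and ENDOG, a mitochondrial nuclease, fell by 0.60. Their median siEZH1 difference was 0.20, beside -0.26 for the 10 members and 0.02 for all loci. Among 15 tested regulators of BCL2 proteins, none was called with all 6 libraries. PIM3, a kinase that phosphorylates BAD, was at 70.3, 78.3 and 121 FPKM under TNF in siEZH1, siUXT and NC cells, against 40.5, 53.7 and 61.7 FPKM under PBS. Without siUXT PBS it rose by 0.87 under TNF (limma, Benjamini-Hochberg adjusted p = 0.0027) and fell by 0.68 after siEZH1 (adjusted p = 0.0070). In the same fit 2 of the 15, the 14-3-3 protein genes YWHAQ and YWHAB, rose after siEZH1, by 0.35 and 0.26. A further 14-3-3 gene on the list, YWHAZ, was not called. That fit called 11.8% of all loci higher after siEZH1 and 2.47% higher under TNF.

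Of 10 tested transcription factor genes with known roles at BCL2 family promoters, 1 was called under TNF with all 6 libraries, against 0.414% of all loci, and 2 were called higher without siUXT PBS, against 2.47%. NFKB1, an NF-kB subunit, rose by 1.79 ± 0.15 (standard error; limma, Benjamini-Hochberg adjusted p = 0.0060). None of the 10 was called after siEZH1 or siUXT, with or without the siUXT PBS library.

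The loci whose pattern over the 6 libraries was most like that of PMAIP1, the member with the largest estimated difference for TNF and for siUXT, were PNRC1, EREG and ZC3H12C, with Pearson's r of 0.99 each. All 3 had their lowest value in siUXT PBS. For BAD, largest for siEZH1, they were PRR7, NOS3 and CCDC85B, with r of 0.99, 0.99 and 0.98. These r values are over 6 libraries that share treatment and transfection, and 38 and 52 loci reached an r of 0.95 with PMAIP1 and BAD.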

How the data were processed

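RNA was measured by poly(A) RNA-seq in 6 libraries, 1 per condition. Per the submitters' processing notes, FastQC, cutadapt, TopHat2, Bowtie and SICER were used with hg19; the program that made the FPKM, its annotation and its strand setting are not stated, so overlapping and antisense genes are uncertain. The deposited FPKM values were used as the authors gave them and analysed as log2(FPKM + 1). Symbols with identical values were merged into loci, and those averaging 1 FPKM or more were tested.

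Differences were tested in R 4.3.3 with limma 3.58.1 (eBayes with trend), with transfection and treatment as additive terms, 2 residual degrees of freedom and Benjamini-Hochberg adjustment over 11845 loci. The spread behind the p-values is what the additive terms leave, that is, how far the TNF difference varies between the transfections. In the reported fit limma combined it with the spread of all loci, weighted as 4.42 degrees of freedom. Without replicates, technical scatter and a true difference in TNF response between transfections cannot be told apart in that spread. The script was tested on simulated data. Python 3.11.15 with pandas 2.3.3 and matplotlib 3.10.9 did the rest.

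Read depth is not given. Steps among values under 0.4 FPKM, with a tolerance of 2%, put NC TNF and siEZH1 TNF at 0.719 and 0.720 of the depth of NC PBS and the others at 0.949 to 1.02; size factors were 1.00 to 1.05. Values of 0 may be failed estimates and are called listed at 0.

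The members and gene lists were chosen with earlier results of these data known. The rule named all members, up to 4 genes per list and comparison with the largest differences of 1 sign, of which those called in some fit are printed, apart from items not reported here, and 3 loci most like the leading members. Upstream windows come from a RefSeq table on GRCh38.p14, which 8 of the 10 members matched. Alternatives were another pseudocount (0.1), no filter, size factors, eBayes without trend, and fits without a library or a pair.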

Additional observations from a re-analysis of the deposited data

Results flagged for a closer look

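In 5 cases the TNF difference of a gene had opposite signs in a knockdown and in NC, with 1 pair of libraries on each side, and the difference between them was not tested. Mixed signs were common: only 9.08% of all loci were higher and 11.1% lower under TNF in every pair. The share of loci with opposite signs in a given knockdown and in NC was not counted. In siUXT cells BAX, BAK1, BID and BCL2L1 were lower under TNF than under PBS and in NC cells higher, so that the TNF difference in siUXT minus that in NC was -0.46, -0.49, -0.47 and -0.25 on the log2(FPKM + 1) scale. The share of tested loci with a still lower value was 20.6%, 18.3%, 20.2% and 36.3%. All 4 use the siUXT PBS library, where BAX, BAK1 and BCL2L1 were at their highest level of the 6 libraries. For MCL1 the TNF difference in siEZH1 minus that in NC was -0.12, from -0.07 in siEZH1 and 0.05 in NC. A still lower value was found for 25.3% of tested loci.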

How the results depend on the processing

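With another pseudocount, no filter, size factors or no trend, limma called 0 of the 10 genes in each comparison, as in the reported fit. Calls came from leaving out libraries. For TNF, 1 to 3 of the 10 were called when 1 pair was left out (130 to 323 loci, against 49 with all libraries), and 3 without siUXT PBS or without siUXT TNF (328 loci each); no filter gave 23 loci. For siEZH1, 6 of the 10 were called without the siUXT pair (3098 loci), without siUXT PBS (3132 loci) and without siUXT TNF (3089 loci), against 2 loci with all libraries. For siUXT, 65 loci were called without the siEZH1 pair, 129 without siUXT PBS, 3604 (and 6 of the 10) without siUXT TNF, and 0 with a pseudocount of 0.1, against 5. These smaller fits have 1 residual degree of freedom, and the cause was not tested. For TNF and siEZH1, the fits without siUXT libraries all rest on the same siEZH1 and NC libraries. Without the NC pair or the siEZH1 pair, limma set the spread from all loci alone.

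Leaving out siUXT libraries cannot move the siEZH1 estimates, and no alternative for that comparison left out a siEZH1 or NC library. Within that limit, no siEZH1 difference of the 10 genes changed sign. Under TNF, 12 values did: BAX was at 0.12, BAK1 at 0.18 and MCL1 at -0.0055 without the siUXT pair or either siUXT library, and BAK1 at 0.016 with size factors. Leaving out 1 pair gave -0.11 to 0.12 for BAX, -0.13 to 0.18 for BAK1, -0.058 to 0.12 for BCL2L1 (-0.0019 without the NC pair) and -0.0055 to 0.50 for MCL1. For siUXT, 10 did: without siUXT PBS, PMAIP1 was at 0.11, BAX at -0.028, BAK1 at -0.097, BIK at -0.17, BID at -0.16 and MCL1 at 0.12; without siUXT TNF, BBC3 was at 0.013 and BCL2L11 at -0.19; with size factors, BID was at -0.0022 and BCL2L11 at -0.019. The labels number no replicates, so no fit with a replicate block was made; the transfection term already sets TNF against PBS within each transfection.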

Other observations

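Ratios of FPKM between genes whose proteins bind each other were also formed, with no test. They are made from the levels already described, so they are not separate results. BAX over BCL2L1 stayed between 0.905 and 1.08 in the 6 libraries, although both genes ranged over more than 1.5-fold. This likeness was not particular to the pair. Pearson's r over the 6 libraries was 0.94 for BAX with BCL2L1, 0.99 for BAK1 with BCL2L1 and 0.97 for BAX with BAK1. MCL1 over PMAIP1 was 1.78, 1.65 and 1.68 under TNF in siEZH1, siUXT and NC cells, against 3.08, 3.54 and 2.64 under PBS. BCL2L1 over BIK was 1.53, 1.88 and 1.66 under TNF in siEZH1, siUXT and NC cells, against 3.48, 3.34 and 3.63 under PBS. BCL2L1 over BAD was higher in all 4 knockdown libraries than in both NC libraries, and lower under TNF than under PBS in each transfection: it was 2.90 and 3.41 in siEZH1 TNF and siEZH1 PBS and 2.88 and 3.55 in siUXT TNF and siUXT PBS, against 2.04 and 2.12 in NC TNF and NC PBS. BAK1 over MCL1 was 1.19 in siUXT PBS and 0.286 to 0.523 in the other libraries.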
